A study of Homo sapiens with 6 samples.

Results

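The 10 genes described here encode alpha-, beta- and gamma-tubulins, and the data are the CTCF and H3K27ac peaks found at them in human neurons. Peaks were taken when they overlapped the interval of TUBA1A, TUBA1B, TUBA1C, TUBB, TUBB2A, TUBB2B, TUBB3, TUBB4A, TUBB4B or TUBG1 extended by 10 kb on each side. This gave 49 of the 78694 H3K27ac peaks and 22 of the 43677 CTCF peaks, and no peak fell in the windows of more than 1 of these genes. The 10 genes were set beside 19970 protein-coding genes treated in the same way. The cells were neurons obtained by differentiating neural progenitors. These came from KOLF2.1J, a widely used line of human pluripotent stem cells made by reprogramming, with no treatment or edited allele named in the labels. Chromatin immunoprecipitation and sequencing used 2 CTCF, 2 H3K27ac and 2 input libraries. Each antibody is represented by 1 peak list for both of its libraries, so the values below have no replicate error, no test was possible, and read depth is unknown. All neurons stem from this 1 line.

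Alpha- and beta-tubulin pair into the dimers from which microtubules are built, and gamma-tubulin forms the ring complexes that start a new microtubule. Humans carry several genes, called isotypes, for each of the alpha and beta subunits. Neurons need large amounts of tubulin for axons and dendrites, where tau, the product of the MAPT gene at the centre of the study, binds microtubules. TUBA1A, TUBB2A, TUBB2B, TUBB3 and TUBB4A were taken as the neuronal isotypes, being the forms best known from the nervous system, and TUBA1B, TUBA1C, TUBB, TUBB4B and TUBG1 as the widely expressed ones. H3K27ac is a histone mark of active promoters and enhancers. CTCF binds DNA at many loop anchors and domain boundaries of chromatin.

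The promoter sequences of 6 starts on which the results turn are given first, because the peaks below are placed by them. They are the 250 bases before the listed transcription start, written 5′ to 3′ on the strand of the gene, from RefSeq on GRCh38.p14. TUBA1A (chr12:49189081-49189330, minus strand), TUBB2B (chr6:3227654-3227903, minus strand) and the downstream start of TUBB3 (chr16:89923092-89923341, plus strand) belong to the neuronal isotypes with the strongest H3K27ac. TUBB2A (chr6:3157545-3157794, minus strand) held a CTCF summit in this window. TUBB4B (chr9:137241037-137241286, plus strand) had the strongest H3K27ac of the widely expressed isotypes. The most downstream start of TUBA1C (chr12:49264832-49265081, plus strand) had no H3K27ac peak. Capitals mark matches on either strand. The motifs are the CCAAT box, the core of GC boxes spelled GGGCGG and the TATA box spelled as TATAAA. Matches that touch or overlap run together.
TUBA1A: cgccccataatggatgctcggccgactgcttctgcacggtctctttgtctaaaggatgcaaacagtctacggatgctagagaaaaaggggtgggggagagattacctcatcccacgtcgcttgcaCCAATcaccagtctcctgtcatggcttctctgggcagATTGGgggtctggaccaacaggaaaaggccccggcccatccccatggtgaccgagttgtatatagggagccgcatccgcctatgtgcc
TUBB2B: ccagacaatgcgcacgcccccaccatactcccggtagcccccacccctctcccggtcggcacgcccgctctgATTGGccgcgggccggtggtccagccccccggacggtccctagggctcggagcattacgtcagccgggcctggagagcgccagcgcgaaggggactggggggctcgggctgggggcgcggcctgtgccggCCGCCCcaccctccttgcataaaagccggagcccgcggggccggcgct
TUBB3: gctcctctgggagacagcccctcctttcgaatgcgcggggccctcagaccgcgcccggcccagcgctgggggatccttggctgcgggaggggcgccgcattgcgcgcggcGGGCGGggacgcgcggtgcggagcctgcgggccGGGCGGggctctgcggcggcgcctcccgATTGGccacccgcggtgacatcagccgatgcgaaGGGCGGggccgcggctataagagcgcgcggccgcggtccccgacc
TUBB2A: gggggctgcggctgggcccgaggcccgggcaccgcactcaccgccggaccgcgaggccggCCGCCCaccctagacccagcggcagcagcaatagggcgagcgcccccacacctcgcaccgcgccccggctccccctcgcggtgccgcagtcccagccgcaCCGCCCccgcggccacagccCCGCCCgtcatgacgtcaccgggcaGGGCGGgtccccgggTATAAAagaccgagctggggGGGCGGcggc
TUBB4B: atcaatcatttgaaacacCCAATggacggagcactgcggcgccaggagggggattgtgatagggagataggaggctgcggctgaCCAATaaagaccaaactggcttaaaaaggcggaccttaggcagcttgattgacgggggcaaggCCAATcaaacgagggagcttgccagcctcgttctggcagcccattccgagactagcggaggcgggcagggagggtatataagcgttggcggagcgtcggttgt
TUBA1C: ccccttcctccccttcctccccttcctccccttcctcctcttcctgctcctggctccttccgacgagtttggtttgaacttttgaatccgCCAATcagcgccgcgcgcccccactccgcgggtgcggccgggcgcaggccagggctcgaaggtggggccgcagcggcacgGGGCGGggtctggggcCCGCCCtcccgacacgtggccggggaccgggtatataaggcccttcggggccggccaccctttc

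All 10 tubulin genes had at least 1 H3K27ac peak in their window, where 77.1% of protein-coding genes did, and all 10 had a peak within 1 kb of a listed start, against 65.9% of the 15812 protein-coding genes with a listed start. Fold enrichment, a value of the authors' list, was read from its layout and values as a ratio of immunoprecipitated to background signal. The highest fold enrichment per gene, that of its strongest peak, ran from 6.59 in TUBB4A to 56.7 in TUBB2B with a median of 25.7. The median over all protein-coding genes with a peak was 16.9. Of the 10 genes 8 lay above that value, and TUBA1B and TUBB4A lay below it. Above it, by construction of a median, were 7693 of the 15389 protein-coding genes with a peak. These were 38.5% of all protein-coding genes. The strongest peak was within 1 kb of a listed start at 8 of the 10 genes, the exceptions being TUBA1C and TUBB2A, against 63.4% of protein-coding genes with a peak and a listed start. The tubulin genes are short (median 4.68 kb, against 24.2 kb for protein-coding genes), so their windows were smaller than most. Of the 49 peaks, 13 had a fold enrichment above 20 and 22 had one under 5. The median over the whole H3K27ac list was 4.74. In that list a value of 4.98 was at least as high as 53.2% of peaks, and one of 20.1 as 92.8%.

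**Figure D1:**
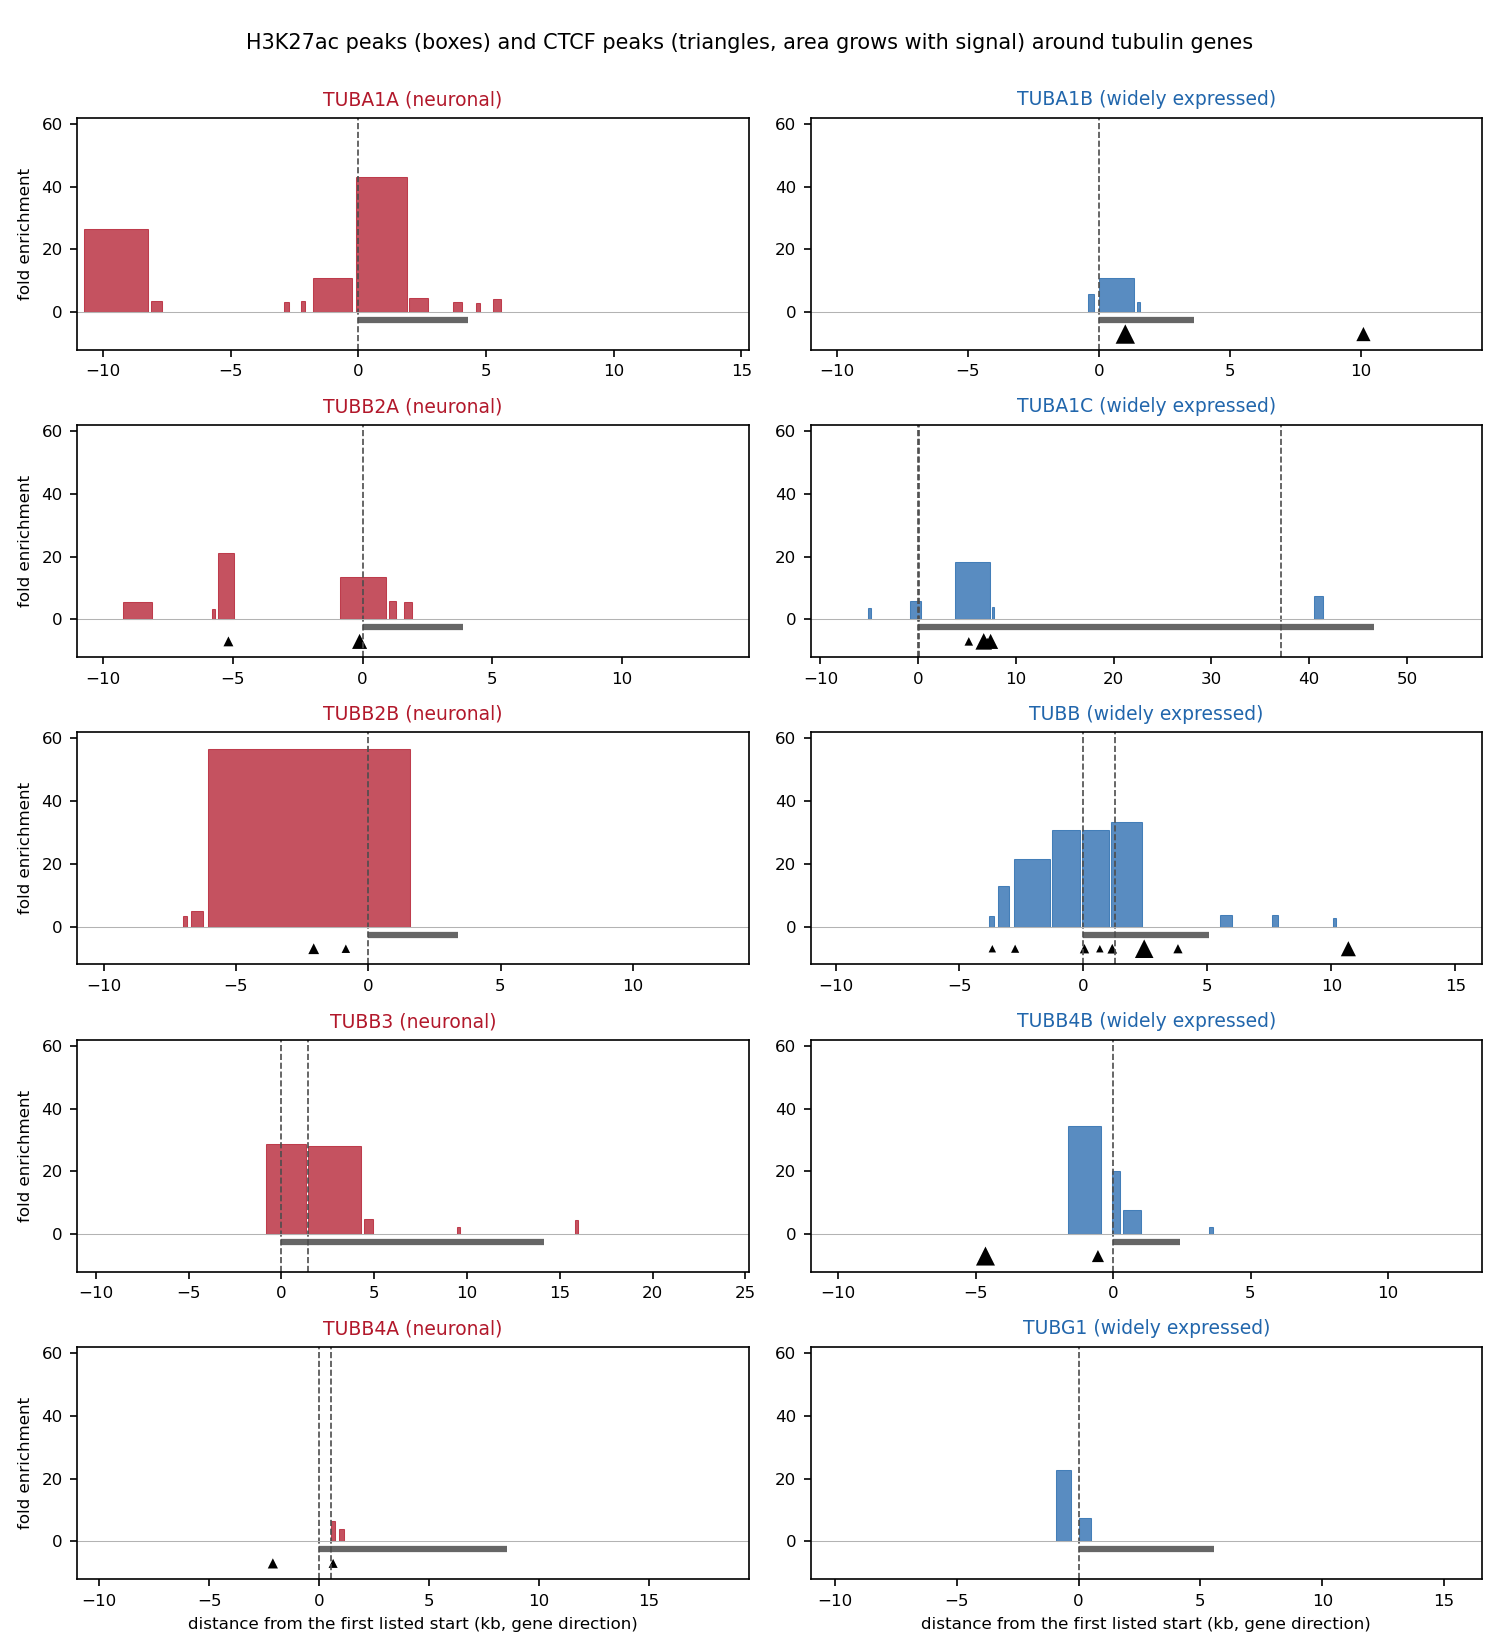
Maps of the 10 tubulin genes. The x axis is the distance in kb from the first listed start in the direction of the gene, and boxes span H3K27ac peaks with their fold enrichment as height; the grey bar is the gene, dashed lines are listed starts, and triangles are CTCF summits whose area grows with the signal value. The box of TUBB2B reaches 56.7 and spans 7655 bp, and no triangle appears at TUBA1A, TUBB3 or TUBG1.

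Among the neuronal isotypes, TUBB2B carried the strongest and broadest acetylation. TUBB2B encodes a beta-tubulin of migrating and differentiating neurons. A single H3K27ac peak at chr6:3226059-3233713 spanned 7655 bp, reached from inside the gene into the interval of the long non-coding RNA gene LOC100422781, and had a fold enrichment of 56.7. Its width exceeded that of 99.98% of H3K27ac peaks, and its fold enrichment exceeded that of 99.6%. The summit lay 3.88 kb upstream of the TUBB2B start, so the highest value of this gene was not at the promoter itself. The remaining 2 peaks of the window had fold enrichments of 4.98 and 3.51.

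TUBA1A, the main alpha-tubulin of young neurons, had the most H3K27ac peaks of the 10 genes. Its 10 peaks covered 7697 bp, more than in 94.2% of protein-coding genes. The strongest, at chr12:49187178-49189153, had a fold enrichment of 43.1, contained the start and extended into the gene. A neighbouring peak upstream of the start had a fold enrichment of 10.97. A second strong peak, at chr12:49197304-49199812, had a fold enrichment of 26.4 and its summit 9.40 kb upstream of the start. No other gene of the reference table overlapped it. The other 7 peaks were all under 5.

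TUBB3, the class III beta-tubulin widely used as a neuronal marker, had a pair of broad peaks that met at its downstream start. The peak at chr16:89921103-89923230 had a fold enrichment of 28.8 and contained the upstream start at 89921925. The peak at chr16:89923334-89926195 had a fold enrichment of 28.2 and contained the downstream start at 89923342, which lies 9 bases beyond the last base without a peak. Fold enrichments of the 3 other peaks were 4.87, 4.44 and 2.29, and the last of these had a −log10 q of 0.581, a q-value above 0.05. The neighbouring melanocortin receptor gene MC1R lies within the TUBB3 window, but none of the 5 peaks overlapped its interval.

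TUBB2A, whose protein is a near copy of that of TUBB2B, showed a different arrangement. Its promoter peak at chr6:3156659-3158428 had a fold enrichment of 13.6. The highest value in the window, 21.2, belonged to a peak of 605 bp at chr6:3162516-3163120, with its summit 5.42 kb upstream of the start. The other 4 peaks lay between 3.36 and 5.91.

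TUBB4A stood apart from the other neuronal isotypes. It encodes a beta-tubulin of neurons and of myelin-forming oligodendrocytes. The strongest of its 2 peaks, of 202 bp at chr19:6502106-6502307, had a fold enrichment of 6.59 and ended just inside the gene from its downstream start at 6502309. The other had a fold enrichment of 3.90, and neither start lay inside a peak. The 426 bp covered at TUBB4A were fewer than at any other of the 10 genes, and 27.97% of protein-coding genes had fewer. Among 6 oligodendrocyte markers, 5 had an H3K27ac peak in their window, against 77.1% of protein-coding genes. The highest value was 8.004 at MBP, and OLIG2 had no peak. A start was listed for 2 of the 6 markers, and 0 had a peak within 1 kb of it. The part of such cells in the TUBB4A value was not tested.

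The highest acetylation among the widely expressed isotypes was at TUBB4B and TUBB. TUBB4B, a beta-tubulin found in most tissues and in cilia, had its strongest peak just upstream of the start at chr9:137239643-137240861 with a fold enrichment of 34.5. The peak over the start had a fold enrichment of 20.1 and the next one into the gene 7.65. The fourth, at 2.29, had a q-value above 0.05.

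TUBB, the class I beta-tubulin of dividing and resting cells alike, lay in an almost continuous acetylated stretch. Its 5 strongest peaks followed each other from 30716896 to 30722725 on chromosome 6, a span of 5.83 kb. In order along the gene their fold enrichments were 12.9, 21.7, 30.7, 30.8 and 33.3. The last pair contained the listed starts at 30720352 and 30721638. The first of the 5 also overlapped MDC1, a DNA damage response gene on the opposite strand that begins upstream of TUBB. The second began just beyond the MDC1 interval, with its summit 2.58 kb before the TUBB start. Acetylation at the first and second peaks cannot be assigned to either gene. The 4 other peaks were between 2.83 and 3.86.

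TUBG1, the gamma-tubulin of centrosomes and other nucleation sites, had 2 peaks. The stronger, at chr17:42608739-42609374 with a fold enrichment of 22.6, lay upstream of the TUBG1 start and within the interval of RETREG3, an endoplasmic reticulum gene on the opposite strand that begins 256 bp before that start. The peak inside TUBG1 had a fold enrichment of 7.32. Which of these genes the stronger peak belongs to cannot be told apart.

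TUBA1B and TUBA1C, the widely expressed alpha-tubulins, had the lower values of their group. At TUBA1B, whose product is abundant in most cell types, the strongest peak at chr12:49130046-49131405 had a fold enrichment of 10.9 and contained the start. Fold enrichments of 5.69 and 3.26 were listed for the others, the former at a peak that overlapped the antisense gene TUBA1B-AS1.

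TUBA1C differed from the other genes in where its acetylation lay. The strongest peak, at chr12:49231714-49235314, was 3601 bp wide, had a fold enrichment of 18.3 and its summit 5.23 kb inside the gene from the nearest start. The upstream pair of starts, at 49227926 and 49228019, lay in a peak of only 5.97. The downstream start at 49265082, whose promoter sequence is GC-rich (70.8% G or C), lay in a stretch of 32.8 kb with no H3K27ac peak. The next peak had its summit 3.47 kb further into the gene and had a fold enrichment of 7.40.

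Neuronal and widely expressed isotypes overlapped in H3K27ac. The highest fold enrichments of the neuronal isotypes were 43.1 for TUBA1A, 21.2 for TUBB2A, 56.7 for TUBB2B, 28.8 for TUBB3 and 6.59 for TUBB4A, with a median of 28.8. Those of the widely expressed isotypes were 10.9 for TUBA1B, 18.3 for TUBA1C, 33.3 for TUBB, 34.5 for TUBB4B and 22.6 for TUBG1, with a median of 22.6. Both the lowest and the highest of the 10 values were neuronal, so the ranges were nested, and the difference of 6.21 between the medians was small beside the spread within either group. The difference was 3.01 without TUBG1 and 14.1 with TUBB2A counted as widely expressed. Without TUBB4A it was 13.3.

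The breadth of acetylation was also uneven within each group. The bases covered by H3K27ac peaks were 7697 at TUBA1A, 4197 at TUBB2A, 8268 at TUBB2B, 5768 at TUBB3 and 426 at TUBB4A. Among the widely expressed isotypes they were 1706 at TUBA1B, 6291 at TUBA1C, 6478 at TUBB, 2270 at TUBB4B and 1128 at TUBG1. A peak of at least 2 kb occurred at TUBA1A, TUBB2B, TUBB3 and TUBA1C, that is at 4 of the 10 genes, against 15.2% of protein-coding genes. Of these 4 genes 3 are neuronal isotypes.

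**Figure D2:**
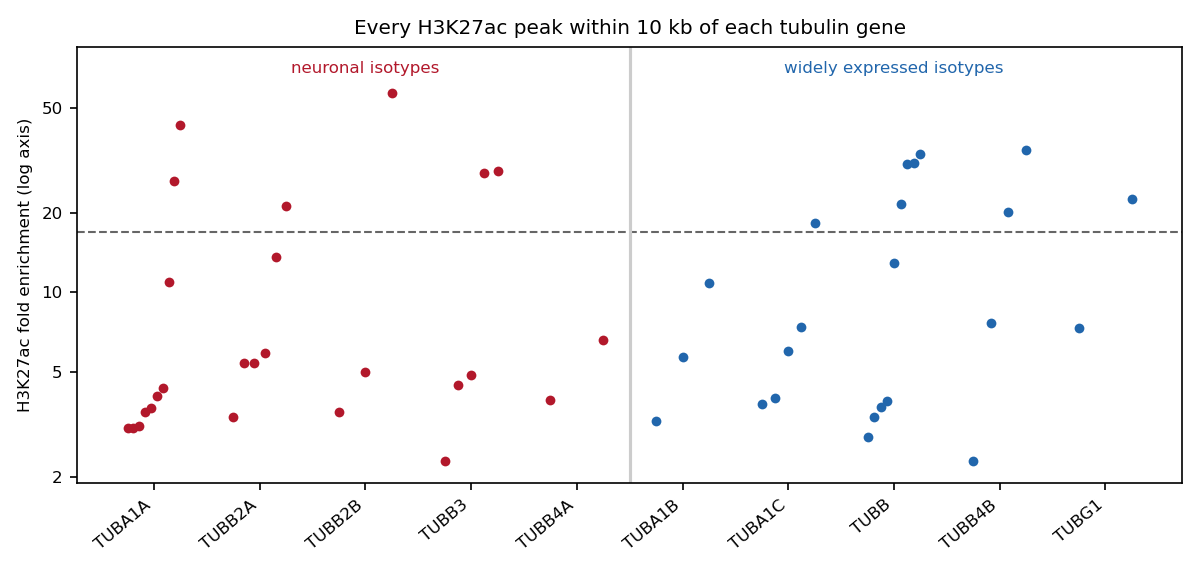
Fold enrichment (log axis) of each H3K27ac peak in the window of each tubulin gene, 1 point per peak, sorted within the gene. The dashed line is 16.9, the median of the highest value per protein-coding gene with a peak; TUBB4A and TUBA1B have no point above it, and the highest neuronal and widely expressed points overlap.

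The mark was split at many starts, with a gap in H3K27ac between peaks on both sides. A gap was counted when it reached into the 250 bases before a listed start and a peak on either side came within 500 bases of that window. Such a gap was found at TUBA1A, TUBA1B, TUBB, TUBB3, TUBB4B and TUBG1, 6 of the 10 genes. Among protein-coding genes with a peak within 1 kb of a start the share was 46.3%, so the tubulin genes were not far from it. The gap ran from 250 to 74 bases before the start at TUBA1A, from 208 to 11 at TUBA1B and from 145 to 58 at the upstream start of TUBB. At the downstream start of TUBB3 it ran from 111 to 9 bases and at TUBB4B from 425 to 24 bases before the start. The gap of TUBG1 was 309 bp long and ended at the start itself. The higher flank was on the gene side at TUBA1A (43.1 against 10.97) and TUBA1B (10.9 against 5.69). It was on the upstream side at TUBB4B (34.5 against 20.1) and TUBG1 (22.6 against 7.32). The flanks were nearly equal at the upstream start of TUBB (30.8 against 30.7) and the downstream start of TUBB3 (28.2 against 28.8). At TUBB2B the broad peak ran through the 250 bases before the start. The windows before both TUBB4A starts and the downstream TUBA1C start also held no H3K27ac, but lay in stretches without a peak of 14.1 and 32.8 kb and were not counted.

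CTCF peaks were found in the windows of 7 of the 10 genes, and 75.2% of protein-coding genes had one. TUBA1A, TUBB3 and TUBG1 had none. The signal value of a CTCF peak is given on the authors' scale, with a median of 91.0 over the whole list. At least 1 bp was shared with H3K27ac by 17 of the 22 CTCF peaks (77.3%). That share was 34.1% of the CTCF peaks in the windows of protein-coding genes. The tubulin genes are shorter (median 4.68 kb against 24.2 kb), so their windows hold less gene body. The part of gene length in this difference was not tested. Overlapping pairs occurred at 7 of the 10 tubulin genes, which are all those with CTCF. Among all protein-coding genes 44.6% had such a pair, that is 8913, and 15017 had a CTCF peak. TUBB alone contributed 8 of the CTCF peaks, and without it 11 of 14 overlapped H3K27ac. A width of exactly 800 bp, which recurs in 33.4% of CTCF peaks and mostly in weak ones, was present in 8 of the 22. Without those peaks 9 of 14 overlapped H3K27ac. Of the 800 bp peaks 3, at TUBB and TUBA1C, had a q-value above 0.05, and these 3 were among the 17 that overlapped H3K27ac. Some CTCF peaks also overlapped each other, and after merging them 13 of 18 overlapped H3K27ac.

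The strongest CTCF peaks lay at widely expressed isotypes. TUBA1B held the highest value, 313.5, at chr12:49130145-49130642, inside the gene and inside its H3K27ac peak, with the summit 1.00 kb from the start. TUBB4B had a peak of 301 at chr9:137236373-137236943, 4.64 kb upstream of the start and overlapping SLC34A3, a phosphate transporter gene, without H3K27ac. At TUBB the strongest of 8 peaks had a signal of 286 at chr6:30722551-30723042, with its summit 1163 bases past the downstream start, where it touched the last of the strong H3K27ac peaks. TUBA1C had values of 220 and 178 at chr12:49234354-49234860 and chr12:49235118-49235590. Both overlapped the 3601 bp H3K27ac peak inside the gene.

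Values at the neuronal isotypes were lower. The highest CTCF signal was 177 at TUBB2A, 75.1 at TUBB2B and 63.6 at TUBB4A. A signal of at least 200, a level chosen after the values were seen, was reached in the windows of 4 of the 5 widely expressed isotypes and of 0 of the 5 neuronal ones, and in 33.5% of protein-coding genes. The contrast depended on the window. With 20 kb on each side 2 neuronal isotypes reached 200, TUBB3 with 259 and TUBB4A with 305, and with 50 kb 4 of them did. The number of widely expressed isotypes was 4 in both of those windows and 3 in the gene interval alone, where no neuronal isotype reached 200.

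**Figure D3:**
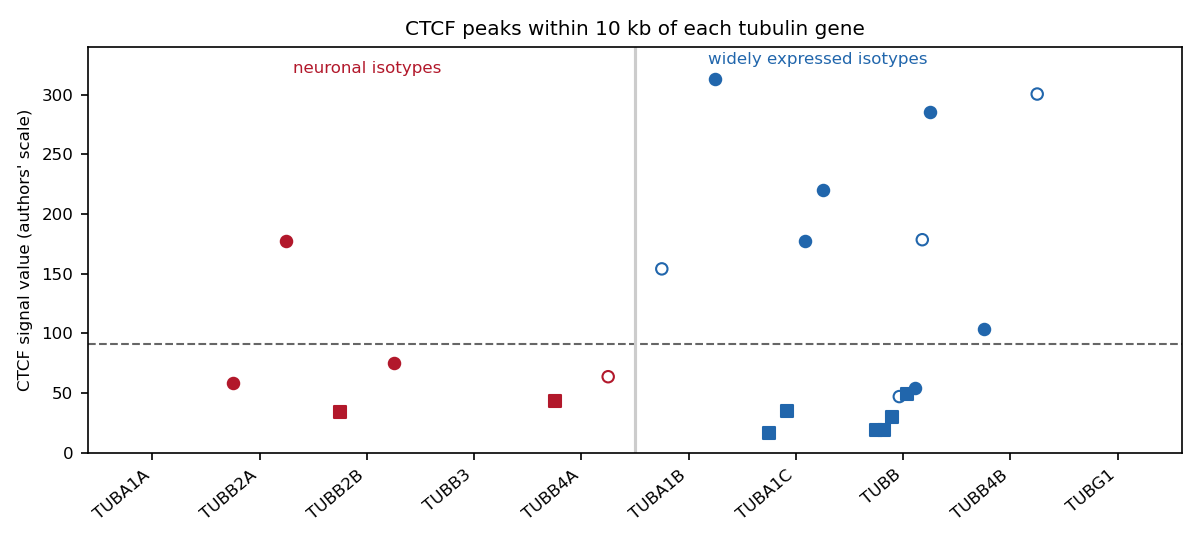
CTCF signal value (authors' scale) of each CTCF peak in the window of each tubulin gene. Filled symbols overlap an H3K27ac peak, open symbols do not, squares are peaks of exactly 800 bp, and the dashed line is the list median of 91.0; the 4 points above 200 are all at widely expressed isotypes.

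CTCF lay within 1 kb of a listed start at 6 of the 10 genes, against 35.4% of protein-coding genes with a listed start. These were TUBA1B, TUBB, TUBB2A, TUBB2B, TUBB4A and TUBB4B. At TUBB2B and TUBB4A the peaks near a start were weak ones of 800 bp, with signals of 34.2 and 43.3. The stronger peaks of these genes, at 75.1 and 63.6, had summits 2.06 and 2.11 kb before the nearest start. At TUBB2A the peak at chr6:3157427-3157945 had a signal of 177 and its summit 117 bases before the start, inside the sequence shown above. At TUBB a peak of 54.4 had its summit 125 bases before the downstream start and a peak of 48.7 had its summit 40 bases after the upstream start. The summit at TUBB4B was 551 bases before the start, with a signal of 103, and lay in the strongest H3K27ac peak of that gene. A search of both strands for a core of the CTCF motif 12 letters long found no match in the 250 bases before any of the 15 tubulin starts. It was present in 2.02% of the 34943 promoter windows of 250 bases. The TUBB2A window thus held a CTCF summit and no match to these letters.

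TUBA1A lay in a long stretch without CTCF. From the TUBA1B peak that ends at 49130642 to the weak TUBA1C peak that begins at 49232699, 102 kb on chromosome 12 held no CTCF peak. This stretch was longer than 80.9% of the stretches between CTCF peaks, whose median was 31.8 kb. That comparison counts each stretch once, and a longer stretch is more likely to hold a gene start. The 80.9% is therefore not a rank among stretches around gene starts, which were not measured for other genes. It contained the TUBA1B and TUBA1A starts and the upstream starts of TUBA1C. Between TUBA1B and TUBA1A 4 H3K27ac peaks were listed, and between TUBA1A and TUBA1C 12, both counts including peaks that reach into these genes. The TUBG1 start was in a CTCF-free stretch of 95.0 kb. The stretch around the TUBB3 start was 37.8 kb long and bounded by peaks with signals of 229 and 259. In contrast, the 66.7 kb between TUBB2A and TUBB2B held 5 CTCF peaks, 4 of which overlapped H3K27ac.

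The 15 listed starts of the 10 genes differed in sequence. CCAAT was present before 10 of them, against 32.0% of promoter windows, and the upstream pair of TUBA1C starts shares the same match. By gene it was found in 8 of 10, all but TUBA1B and TUBB2A, where 40.2% of protein-coding genes with a listed start had it. TUBB4B had 3 matches and TUBA1A had 2, as the capitals in their sequences show, and the upstream start of TUBB4A also had 2. GGGCGG was present before 9 starts (42.5% of promoter windows) and in 8 genes (62.05% of protein-coding genes), with 5 matches each before the TUBB2A start and the downstream start of TUBB. TATAAA was found before TUBB2A only, from 30 to 25 bases before the start (10.8% of promoter windows). Only this exact spelling was searched. Related spellings, such as tatataag in the TUBB4B and TUBA1C sequences shown above, were not counted. CAGATG, an E-box bound by proneural factors, was found once, before the upstream start of TUBB4A (12.2% of promoter windows), and the NRF1 motif at none (1.02%). The G or C content ranged from 47.2% at TUBA1C to 81.2% at TUBA1B, with 10 of 15 starts above the median of 58.0% for all windows.

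Genes that act on tubulin were examined from lists drawn up by function. Of 12 other tubulin genes, 9 had an H3K27ac peak in their window (77.1% of protein-coding genes did), with a median highest fold enrichment of 18.3. TUBA3C, TUBA8 and TUBB8 had none. A start was listed for all 12, and 4 had a peak within 1 kb of it, against 65.9% of protein-coding genes with a listed start. The highest values were 27.6 at TUBB1, a beta-tubulin of platelets, and 27.4 at TUBA3E. No peak lay within 1 kb of a listed start of either gene. The value of TUBA3E is that of a peak shared with MZT2B, a gamma-tubulin complex gene. Of 9 partners of gamma-tubulin in its ring complex all had a peak, with a median of 22.2 and the highest values at TUBGCP3 (43.6) and TUBGCP5 (29.2). All 14 genes of the CCT chaperonin, which folds tubulin, and of the tubulin cofactors had a peak, with a median of 20.9. CCT4 reached 68.3 and CCT5 46.7, and CCT4 was thus above every tubulin gene. All 20 tubulin-modifying enzymes had a peak, with a median of 20.4 and the highest values at the acetyltransferase ATAT1 (42.5) and the deacetylase HDAC6 (40.4). The 40.4 was at a start of HDAC6, whereas within 1 kb of a listed ATAT1 start the highest value was 6.40. The 25.7 of the 10 tubulin genes was the highest of these medians, but the ranges of the lists overlapped.

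**Figure D4:**
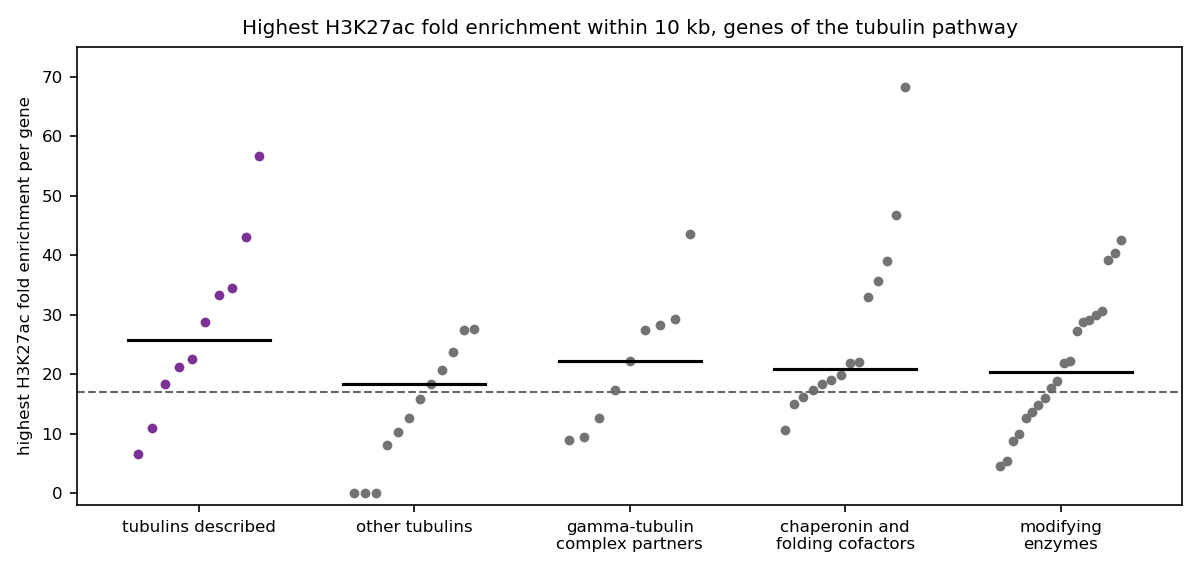
Highest H3K27ac fold enrichment per gene in the tubulin genes described and in 4 lists of related genes, 1 point per gene, with genes without a peak at 0. Black bars are medians of the genes with a peak and the dashed line is 16.9, the median of protein-coding genes with a peak; the highest point of all lists is CCT4 at 68.3.

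The labelled cell type was compared with marker genes. All 10 neuron markers had an H3K27ac peak in their window (median highest fold enrichment 17.4), and so had all 7 neural progenitor markers (median 38.7, range 9.81 to 50.3). The share of protein-coding genes was 77.1%. A start was listed for 6 of the neuron markers and 6 of the progenitor markers, and a peak lay within 1 kb of it at 5 and 6 of these, against 65.9% of protein-coding genes with a listed start. Of 6 astrocyte markers 5 had a peak in their window, with a median of 20.02, and AQP4 had none. The highest values were at GFAP (62.8, above every tubulin gene) and GJA1 (30.4). A start was listed for 4 astrocyte markers, and a peak lay within 1 kb of it at 3. No start was listed for GFAP or for MSI1, the progenitor marker at 50.3, so these values could not be placed at a start. Of 5 pluripotency markers found among the genes 3 had a peak, and NANOG and PRDM14 had none. The median of the progenitor markers was above the 28.8 of the neuronal tubulins, and the part of progenitors or astrocytes in the tubulin values was not tested.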

How the data were processed

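CTCF and H3K27ac were profiled by ChIP-seq in KOLF2.1J neurons. The authors deposited 1 list of peaks per antibody for both of its libraries. Per the submitters' processing notes the build is hg38 and cutadapt 1.16 was used. The aligner, peak caller, settings and handling of duplicates are not given in the sources used here. The deposited CTCF list holds the authors' signal value, on a scale that is not stated. The deposited H3K27ac list holds a fold enrichment (read as a ratio from its layout and values). The deposited lists also hold −log10 q values. The authors' score, which ends at 1000, was not used. Depth is unknown. The input libraries were not analysed here.

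Gene intervals and starts came from RefSeq on GRCh38.p14, the build of the lists. The start table held 15812 of the 19970 protein-coding genes on the autosomes and X, and all 10 tubulin genes. It gives no exons, so peaks were placed by gene interval and start only. Where a sentence compares with a share of protein-coding genes, these were given the same window of 10 kb. Promoter orientation was checked on 2983 overlapping windows of opposite strands, of which 2983 were reverse complements. Overlap meant at least 1 bp, and the overlap search was tested on simulated data. Python 3.11.15, pandas 2.3.3, numpy 2.4.6 and matplotlib 3.10.9 were used. No test was run, since genes and peaks are not replicates. All 10 genes are named, with their strongest peaks, any gene overlapping these, and in each related list the genes without H3K27ac and the 2 highest. Members and lists were chosen with earlier results of these data known, and the comparison of gaps, broad peaks, CTCF-free stretches and signals of at least 200 was added after the values were seen. Alternatives changed the window, the lists and the grouping.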

Additional observations from a re-analysis of the deposited data

How the results depend on the processing

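No paired analysis was possible because each list covers both libraries of an antibody, and for the same reason leaving out each replicate was not run. Of 53 alternative values 28 stayed within 1.5 times the count or at the same median and 25 moved. The neuronal median was above the widely expressed one in every setting run, but some settings could not change this. A q-value under 0.05, the strongest 50% of H3K27ac peaks and counting each peak for the nearest gene only kept the highest peak of every gene. The difference was therefore fixed at 6.21 in these settings. Without the extension the windows held 24 H3K27ac and 12 CTCF peaks, 11 of the latter overlapping H3K27ac, the widely expressed median was 18.3 and the difference 10.6. With 20 kb there were 35 CTCF peaks, the median was 23.9, the difference 4.90, and 2 neuronal isotypes reached a CTCF signal of 200; with 50 kb 4 did. The strongest 50% of H3K27ac peaks left 29. The strongest 50% of CTCF peaks left 9, of which 6 overlapped H3K27ac, and removal of the 800 bp peaks left 14 and 9. Peaks within 1 kb of a start, an alternative added after seeing the data, numbered 19 for H3K27ac and 9 for CTCF, and all 9 overlapped H3K27ac. Counting TUBB2A as widely expressed gave medians of 35.95 and 21.9 and a difference of 14.1. Without TUBG1 the widely expressed median was 25.8 and the difference 3.01, and without TUBB4A, also added afterwards, the neuronal median was 35.95 and the difference 13.3. Unless the construction shows it (fewer peaks or genes), the cause was not tested.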
